A study of Sus scrofa with 16 samples.

Results

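The interferon-stimulated genes of the preterm pig hippocampus were followed across 16 pigs. They were chosen by name: 41 genes that cells switch on when interferon binds its receptor, looked up in the deposited table through a reference list that pairs pig gene IDs with symbols. An ID was found for 40 of the 41 genes and a row of values for 31, and 28 of these had a mean of at least 0.5 FPKM (fragments scaled by transcript length and by the mapped fragments of the library) over the 16 pigs. These 28 genes are described below, out of 13590 table entries above the same minimum. Of the other 13 genes, RTP4 had no ID in the list, and the IDs of IFIT1, IFIT3, OAS1, BST2, IFI6, XAF1, IRF9, ISG15 and UBA7 had no row, so these 10 were not analysed here. The last 3, OASL, ISG20 and HERC6, had rows under the minimum, and HERC6 was listed at 0 in every pig.

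The study asked whether necrotizing enterocolitis (NEC), an inflammatory disease of the bowel in preterm newborns, leaves a mark on gene expression in the hippocampus. All pigs were delivered preterm by cesarean section and fed human donor milk with parenteral nutrition for 8 days. Every group thus shared preterm birth. The milk was of different types, and the labels do not give the type for each pig. The RNA came from the left hippocampus of 5 No NEC pigs with no gut lesion at autopsy (score 1 in every region), 5 Co-NEC pigs with severe lesions (a score of 4 or more) in the colon alone, and 6 Si-NEC pigs with severe small-intestinal lesions, whatever the state of the colon. NEC arose spontaneously and was not assigned, and the labels give the sex of each pig but no litter. Females numbered 2 of 5 among No NEC pigs, 2 of 5 among Co-NEC pigs and 3 of 6 among Si-NEC pigs. Pig numbers end in 14 or 15, a suffix that the labels do not explain. The 6 pigs with suffix 14, 2 in each group, were all male.

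Type I interferons are released by cells that detect foreign or misplaced nucleic acid. They bind a receptor on the same and neighbouring cells, whose kinases activate transcription factors, STAT2 with IRF9 among them, and these enter the nucleus and switch on a large set of genes at once. The products of those genes sense viral RNA, block viral replication, tag proteins with the ubiquitin-like ISG15, and damp the response again. In the brain, microglia, astrocytes, endothelial cells and neurons can all make this response. In RNA from whole tissue, a change in the number of cells that express a gene and a change in the RNA per cell cannot be told apart.

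The deposited unit is FPKM, from which no sequencing depth can be read. Each pig's values summed to between 544629 and 864931. Neuronal markers such as SYT1 (251 to 407 FPKM) and GAD1 (78.0 to 103 FPKM) and the dentate marker PROX1 (4.92 to 10.3 FPKM) were present in every pig. One animal stood apart from all others in the 28 genes, Si-NEC pig 246-15, a female with suffix 15. It was singled out after its values were seen, and group results are therefore given with and without it.

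Pig 246-15 had the highest level of the 16 pigs in 28 of 28 genes, against 6.91% of all entries. Its level was at least 2 times that of every other pig in 26 genes (0.758% of all entries), at least 3 times in 18 (0.346%) and at least 5 times in 8 (0.118%). Over the median of the other 15 pigs its level was higher by a median of 8.43 times, from 1.67 times for ADAR to 64.3 times for DDX60, while the same median over all entries was 1.03. Of the summed FPKM of the 6 Si-NEC pigs it held a median of 68.7% across the 28 genes, where an equal share is 16.7% and the median over all entries was also 16.7%. Of the 28 genes 4 reached the minimum mean of 0.5 FPKM only through this pig, since the other 15 pigs averaged 0.282 FPKM for DDX60, 0.371 for HERC5, 0.494 for RSAD2 and 0.498 for IFIH1, so these 4 had to be high in 246-15 to be tested at all. Among the other 24 genes, 246-15 was highest in 24, at least 2 times every other pig in 22, 3 times in 14 and 5 times in 6. Of all entries that reach the minimum in the other 15 pigs, the shares were 6.77%, 0.686%, 0.295% and 0.0885%. The median over those 24 genes was 7.32 times, up to 33.3 times for USP18.

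**Figure D1:**
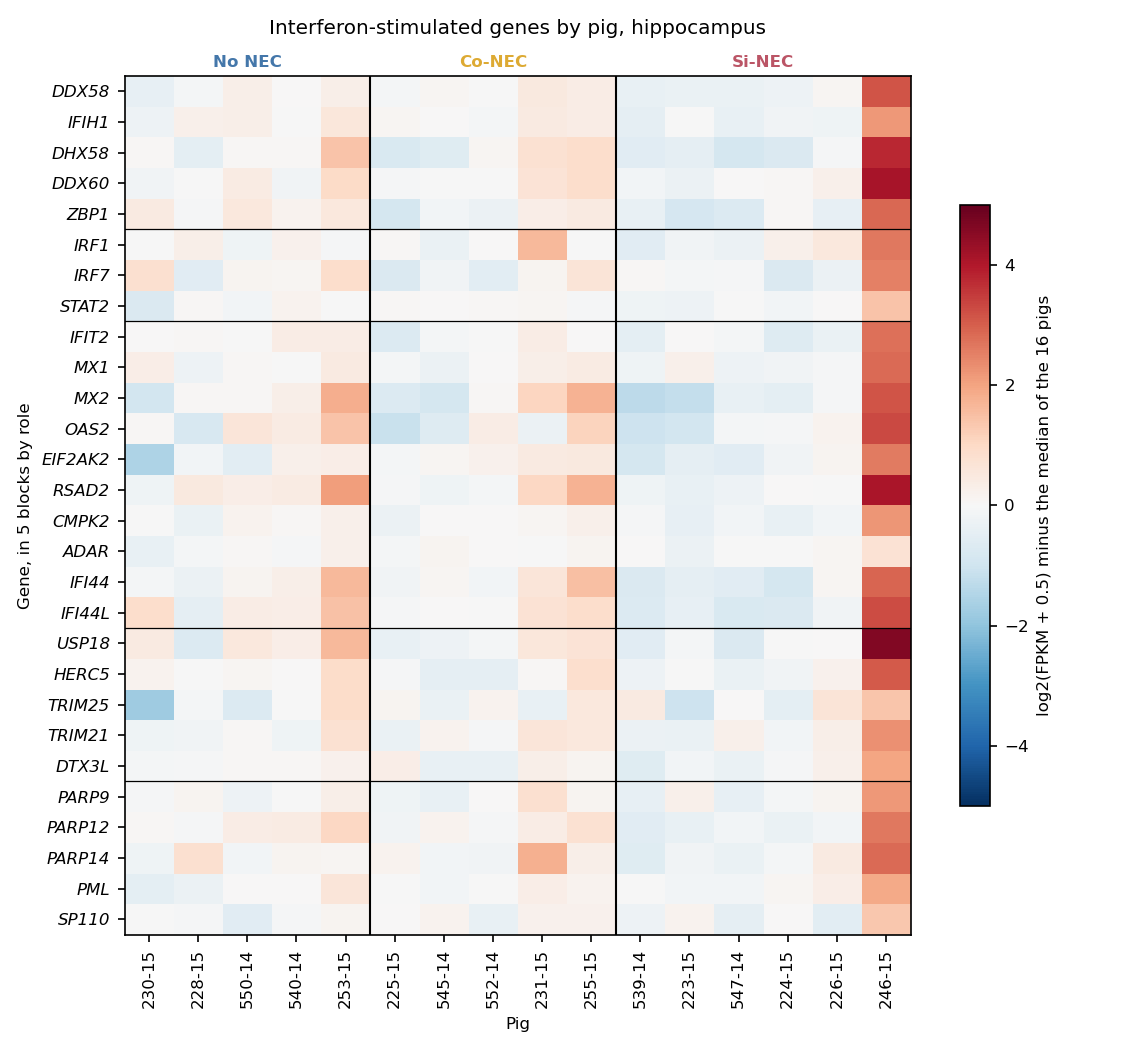
Level of each of the 28 genes (rows, in 5 blocks by role) in each pig (columns, by group and ordered by mean level), as log2(FPKM + 0.5) minus the median of the 16 pigs. The column of Si-NEC pig 246-15 is raised in all 28 rows, and No NEC pig 253-15 and Co-NEC pigs 255-15 and 231-15 show paler raised columns.

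The sensors of foreign nucleic acid were 5 genes, and their levels in pig 246-15 lay 8.42 to 64.3 times above the median of the other pigs. DDX58 encodes RIG-I, the cytosolic sensor of viral RNA ends. Its level was 2.89, 2.63, 2.06, 3.66 and 3.58 FPKM in No NEC pigs 540-14, 228-15, 230-15, 253-15 and 550-14. It was 2.68, 3.15, 2.85, 3.83 and 4.17 FPKM in Co-NEC pigs 225-15, 545-14, 552-14, 255-15 and 231-15. In the Si-NEC pigs it was 2.2, 2.31, 2.16, 2.13 and 3.15 FPKM in 223-15, 224-15, 547-14, 539-14 and 226-15, and 29.0 FPKM in 246-15. Apart from 246-15 the groups overlapped, and 4 of the other 5 Si-NEC pigs lay below every Co-NEC pig. DDX60, a helicase that assists RIG-I, was at 0.1, 0.172, 0.0964, 0.801 and 0.387 FPKM in the No NEC pigs and 0.158, 0.162, 0.173, 0.742 and 0.580 FPKM in the Co-NEC pigs, in the same order. In the Si-NEC pigs it was at 0.0477, 0.206, 0.180, 0.120 and 0.302 FPKM, and at 11.1 FPKM in 246-15. All groups overlapped below 1 FPKM, where No NEC pig 253-15 and Co-NEC pig 255-15 were the next highest.

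IFIH1 (MDA5), which senses long double-stranded RNA, reached 3.81 FPKM in 246-15, against 0.195 to 0.922 FPKM in the remaining 15 pigs. DHX58 (LGP2), a regulator of both sensors, was at 36.4 against 0.995 to 6.77 FPKM. ZBP1, which binds Z-form nucleic acid and can trigger cell death, was at 8.33 against 0.166 to 1.26 FPKM. All 3 genes thus showed the same single high pig, with no overlap between 246-15 and the rest.

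The transcription factors were 3 genes. IRF7, the factor that amplifies interferon production, was at 8.39, 5.05, 13.9, 14.5 and 8.45 FPKM in No NEC pigs 540-14, 228-15, 230-15, 253-15 and 550-14, at 4.43 to 12.3 FPKM in Co-NEC pigs (median 6.68), at 4.48 to 8.11 FPKM in 5 Si-NEC pigs and at 46.9 FPKM in 246-15. STAT2, a factor of the type I signal, varied least of the 3, with 8.0 to 15.4 FPKM in 15 pigs and 37.6 FPKM in 246-15. IRF1, which responds to both type I and type II interferon, was at 25.3 FPKM in 246-15, but here a second pig was also high, Co-NEC 231-15 at 12.2 FPKM, while the other 14 pigs had 2.30 to 5.51 FPKM.

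The antiviral effectors were 10 genes, with levels in 246-15 from 1.67 times (ADAR) to 60.5 times (RSAD2) above the median of the other pigs. MX1, a dynamin-like GTPase that traps viral nucleocapsids, had the highest FPKM of all 28 genes. It was at 31.0, 26.3, 39.5, 43.3 and 32.3 FPKM in No NEC pigs 540-14, 228-15, 230-15, 253-15 and 550-14, and at 29.6, 25.2, 31.8, 41.9 and 38.5 FPKM in Co-NEC pigs 225-15, 545-14, 552-14, 255-15 and 231-15. In Si-NEC pigs 223-15, 224-15, 547-14, 539-14 and 226-15 it was at 37.0, 27.4, 25.9, 26.9 and 29.8 FPKM, and in 246-15 at 229 FPKM. Without 246-15 the 3 groups covered nearly the same range. OAS2, which makes the second messenger that activates RNase L, was at 9.25, 3.70, 7.04, 18.9 and 10.7 FPKM in the No NEC pigs and 2.86, 4.14, 9.04, 15.5 and 5.51 FPKM in the Co-NEC pigs, in the same order. In the Si-NEC pigs it was at 3.41, 6.57, 6.27, 3.06 and 7.85 FPKM, and at 70.8 FPKM in 246-15. Its 2 highest values outside 246-15 belonged to No NEC pig 253-15 and Co-NEC pig 255-15.

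RSAD2 (viperin), which makes a chain-terminating nucleotide, had the widest ratio of highest to lowest level among the 15 other pigs, from 0.0340 FPKM in Si-NEC pig 223-15 to 2.42 FPKM in No NEC pig 253-15, and reached 11.1 FPKM in 246-15. Its neighbour in function CMPK2, a mitochondrial nucleotide kinase, held a narrow range of 3.11 to 5.17 FPKM and reached 21.6 FPKM in 246-15. RSAD2 thus varied widely among the other pigs and CMPK2 little, and both were highest in the same animal. MX2 was at 26.2 FPKM in 246-15 and at 0.740 to 10.3 FPKM elsewhere. IFI44L and IFI44, interferon-induced proteins of less settled function, were at 60.8 and 21.6 FPKM in 246-15, against 3.26 to 17.4 FPKM and 1.09 to 8.45 FPKM. EIF2AK2 (PKR), the kinase that halts translation on double-stranded RNA, was at 30.3 against 1.22 to 6.53 FPKM, and IFIT2, which binds viral RNA, at 13.4 against 0.776 to 2.17 FPKM. ADAR, the enzyme that edits adenosine to inosine in double-stranded RNA, was the least raised, at 33.2 FPKM against 15.4 to 23.7 FPKM.

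In the ISG15 and ubiquitin pathway 5 genes were measured. USP18 removes ISG15 from proteins and also shuts off the type I receptor. It was at 2.2, 0.848, 2.46, 6.15 and 2.59 FPKM in No NEC pigs 540-14, 228-15, 230-15, 253-15 and 550-14 and at 1.16, 1.32, 1.53, 2.97 and 2.70 FPKM in Co-NEC pigs 225-15, 545-14, 552-14, 255-15 and 231-15. In Si-NEC pigs 223-15, 224-15, 547-14, 539-14 and 226-15 it was at 1.51, 1.59, 0.785, 0.945 and 1.70 FPKM, and in 246-15 at 52.8 FPKM. Outside 246-15 the groups overlapped, and 253-15 was the highest of the other 15 pigs. HERC5, the ligase that attaches ISG15, was at 6.30 FPKM in 246-15 and 0.1 to 1.03 FPKM elsewhere. TRIM21, a cytosolic antibody receptor, was at 12.3 against 1.58 to 3.97 FPKM, and DTX3L, which works with PARP9, at 4.34 against 0.305 to 1.02 FPKM. TRIM25, which ubiquitinates RIG-I, came nearest to overlap in this pathway, with 6.94 FPKM in 246-15 and 4.90 FPKM in No NEC pig 253-15.

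The last 5 genes encode PARP enzymes and proteins of nuclear bodies. PARP12, an antiviral ADP-ribosyl transferase, was at 2.33, 1.51, 1.72, 3.79 and 2.21 FPKM in No NEC pigs 540-14, 228-15, 230-15, 253-15 and 550-14 and at 1.39, 1.86, 1.5, 3.10 and 2.25 FPKM in Co-NEC pigs 225-15, 545-14, 552-14, 255-15 and 231-15. In the Si-NEC pigs 223-15, 224-15, 547-14, 539-14 and 226-15 it was at 1.13, 1.18, 1.42, 0.923 and 1.43 FPKM, and in 246-15 at 12.8 FPKM. The 5 lower Si-NEC pigs all lay under the lowest No NEC pig. PARP14, a mono-ADP-ribosyl transferase, was at 7.57 FPKM in 246-15 and, as for IRF1, second highest in Co-NEC pig 231-15, at 3.40 FPKM. PARP9, PML and SP110, the last 2 being nuclear body proteins, were at 6.04, 22.3 and 6.00 FPKM in 246-15, against upper values of 2.06, 8.93 and 2.47 FPKM in the other pigs.

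**Figure D2:**
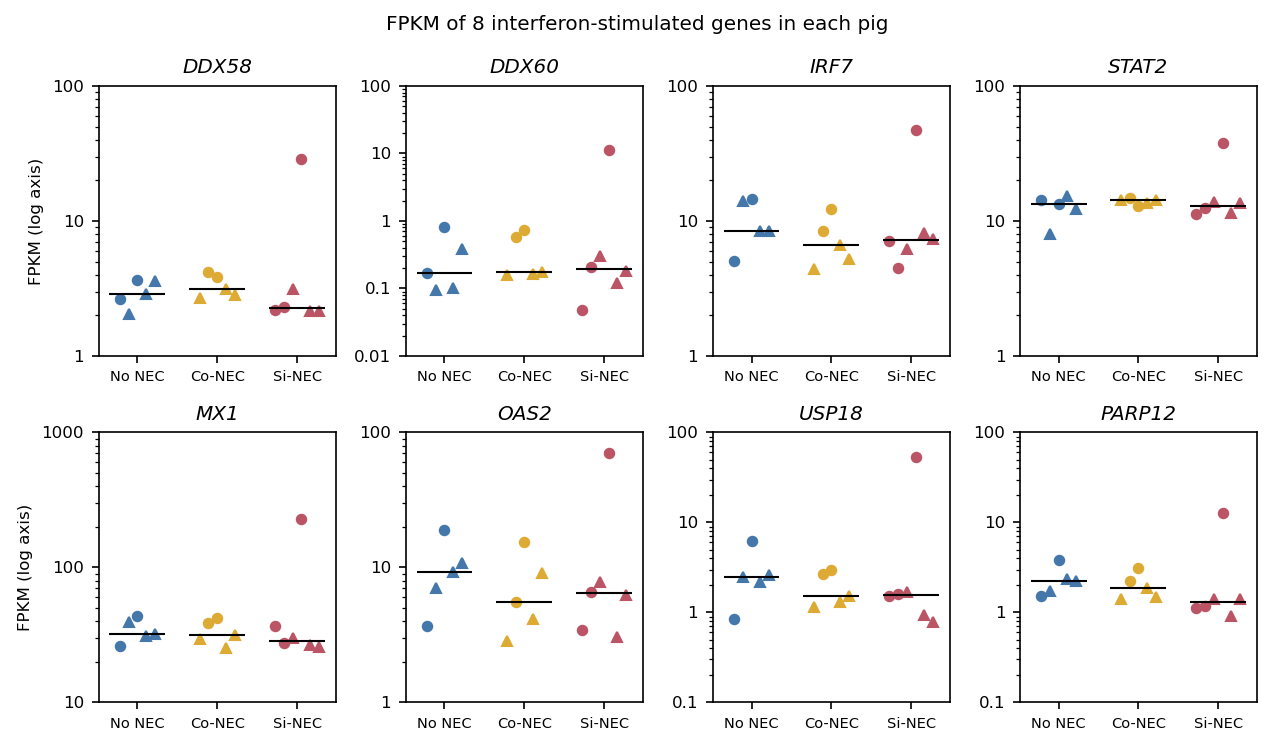
FPKM on a log axis of 8 genes in each No NEC, Co-NEC and Si-NEC pig (circles female, triangles male, bars group medians). Pig 246-15 is the single highest point in each panel, at 29.0 FPKM for DDX58 and 229 FPKM for MX1, while the group medians lie close together.

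The 2 genes under the minimum that were above 0 showed the same pig. OASL was at 1.64 FPKM and ISG20 at 2.76 FPKM in 246-15, and no other pig exceeded 0.303 FPKM and 0.177 FPKM, respectively. They passed no filter and entered no test.

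Pigs were ranked by the mean over the 28 genes of log2(FPKM + 0.5) minus the median of the 16 pigs. The mean was 2.67 in pig 246-15, followed by 0.76 in No NEC pig 253-15, 0.57 in Co-NEC pig 255-15 and 0.48 in Co-NEC pig 231-15. The remaining 12 pigs lay between -0.41 and 0.13, and neighbours in that order lay close together. The 5 other Si-NEC pigs had means of 0.05, -0.23, -0.30, -0.31 and -0.41, and 4 of them filled the 4 lowest places of the 16. Over all 13590 entries the same mean lay between -0.06 and 0.08 in every pig, so the raised levels of these 4 pigs were not shared by the table as a whole. The 4 highest pigs came from all 3 groups.

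Leaving out 246-15, No NEC pig 253-15 was highest of 15 in 19 of the 28 genes, against 4.95% of all entries. Its level was 14.0 times the median of the other 14 pigs for RSAD2, 4.76 times for MX2, 4.64 times for DDX60 and 3.95 times for USP18. Co-NEC pig 231-15 was highest in 4 genes (2.9% of all entries), which were DDX58, IRF1, PARP9 and PARP14, and Co-NEC pig 255-15 in 2, EIF2AK2 and SP110 (4.93%). For the other 3 genes, ZBP1, STAT2 and DTX3L, the highest of the 15 was 550-14, 540-14 and 225-15, respectively.

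**Figure D3:**
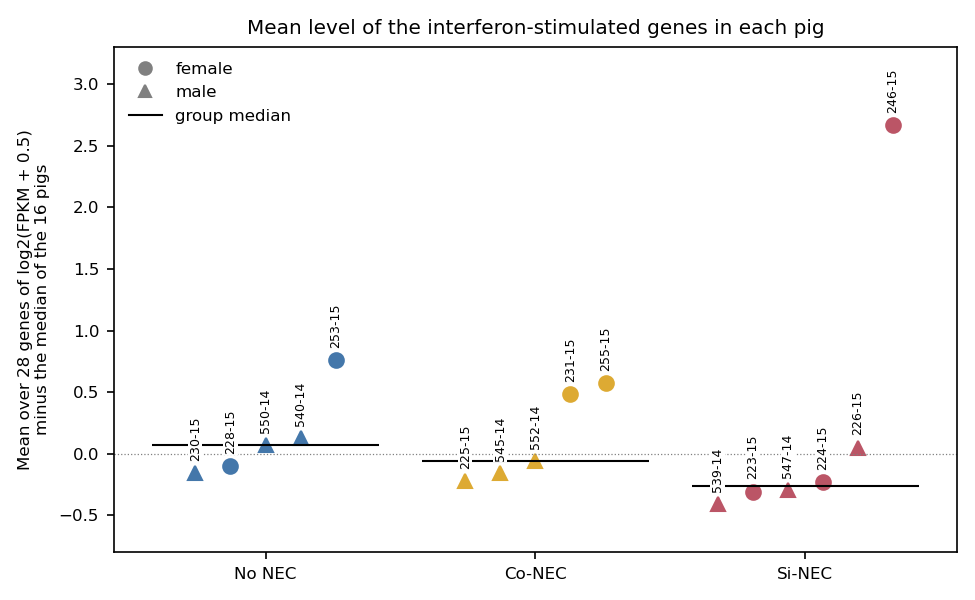
Mean over the 28 genes of log2(FPKM + 0.5) minus the median of the 16 pigs, for each pig by group (circles female, triangles male, bars group medians). Si-NEC pig 246-15 lies at 2.67, and 253-15, 255-15 and 231-15 at 0.76, 0.57 and 0.48.

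The 4 highest pigs were all female with suffix 15. The other 3 female pigs, No NEC 228-15 and Si-NEC 224-15 and 223-15, had means of -0.10, -0.23 and -0.31, within the range of the 9 male pigs of -0.41 to 0.13. Whether the sexes differed was not tested over the 28 genes. The effect of group was tested for a difference between the sexes with an interaction term, and 0 of 28 genes passed an adjusted p of 0.2 in any comparison (0.00736%, 0% and 0.00736% of all entries for Si-NEC and Co-NEC against No NEC and for the contrast of the lesion groups). With an unadjusted p under 0.05 there were 0, 1 and 0 of the 28 genes in that order, against 10.8%, 2.47% and 10.2% of all entries. The smallest limma adjusted p-values of the 28 genes were 0.450, 0.926 and 0.577.

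Groups were compared to ask whether NEC in the small intestine or colon goes with a different level of these genes. Differences are on the log2(FPKM + 0.5) scale, which understates the change of genes with low FPKM. For Si-NEC against No NEC pigs, limma with adjustment over all entries called 0 of 28 genes at an adjusted p under 0.2 (0.00736% of all entries) and 0 at an unadjusted p under 0.05 (2.61%). The smallest adjusted p was 1. There were 18 genes with a higher (53.8% of all entries) and 10 with a lower mean in Si-NEC pigs (46.2%), with a median difference of 0.15 against 0.02 over all entries. The extremes were TRIM25 at 0.50 (SE 0.49) and IFI44L at -0.44 (SE 0.67), and DDX58, DDX60, USP18, MX1 and OAS2 had differences of 0.31 (SE 0.56), 0.47 (SE 0.70), 0.08 (SE 0.86), 0.28 (SE 0.50) and -0.11 (SE 0.69). In each of these genes the standard error was about as large as the difference or larger. In the study, Cuffdiff at the same threshold of 0.2 listed DDX58, DDX60 and USP18 as differentially expressed between these groups. Its authors describe USP18 as upregulated with NEC. The reason for the different calls was not tested.

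For Co-NEC against No NEC pigs the call was 0 of 28 genes at an adjusted p under 0.2 (0.00736% of all entries) and 0 at an unadjusted p under 0.05 (3.44%), with a smallest adjusted p of 0.812. The genes split evenly, 14 higher and 14 lower (52% and 48% of all entries), with a median of 0.00 against 0.01 over all entries. EIF2AK2 had the most positive difference, 0.55 (SE 0.32), and OAS2 the most negative, -0.45 (SE 0.47). For Si-NEC against Co-NEC pigs 0 of 28 genes were called at an adjusted p under 0.2 (0.0147% of all entries) and 0 at an unadjusted p under 0.05 (5.64%), with a smallest adjusted p of 0.912. Here 20 genes were higher and 8 lower in Si-NEC pigs (50.1% and 49.9% of all entries), with a median of 0.15 against 0.00. DDX60, HERC5 and RSAD2 among the higher, and IFIH1 among the lower, had passed the minimum only through 246-15. Two-sided exact permutation tests of single genes gave 0 of 28 below 0.05 in all 3 comparisons. The smallest p possible was 0.00216 with 6 against 5 pigs and 0.00794 with 5 against 5. The permutation tests were not run over all entries, so no share is given beside that count. A p above the threshold does not show that the groups were alike. The standard errors were wide, and that of MX1 for Si-NEC against No NEC pigs was 0.50 with all pigs and 0.16 without 246-15.

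The direction of the Si-NEC group rested on pig 246-15. Removing the highest pig of a group lowers that group by construction, and the values without it are given as a description of the other 5 Si-NEC pigs. Without it, 25 of 28 genes had a lower mean in Si-NEC pigs than in pigs without lesions (47.3% of all entries), with a median difference of -0.27 against 0.01 over all entries. The 3 genes that were higher were TRIM25, PML and STAT2. By role the medians were -0.42 for the sensors, -0.59 for the antiviral effectors, -0.21 for the ISG15 and ubiquitin pathway, -0.13 for the PARP and nuclear body genes and -0.11 for the transcription factors. An unadjusted p under 0.05 was reached by 7 genes, all lower in Si-NEC (1.35% of all entries in that direction). At the adjusted threshold of 0.2, limma called 0 of 28 (0.00736% of all entries), and the smallest adjusted p was 1.

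Those 7 genes were ZBP1, IFI44L, PARP12, IFIT2, IFI44, DHX58 and IFIH1. IFI44L had the most negative difference of the 28, -1.08 (SE 0.31), with 3.26 to 5.14 FPKM in the 5 Si-NEC pigs and 4.16 to 17.4 FPKM in No NEC pigs. The difference of ZBP1 was -0.78 (SE 0.20), with 4 of 5 Si-NEC pigs below every No NEC pig (p = 0.0159, two-sided exact permutation test). PARP12 had a difference of -0.67 (SE 0.20) and was the single gene whose groups did not overlap (0.177% of all entries in that direction). Its p of 0.00794 is the smallest that a two-sided exact permutation test of 5 against 5 pigs can give. Because 246-15 was left out for its values in these genes, p-values without it are a description and test no effect of NEC. Two-sided exact permutation tests also gave 7 genes below 0.05, with RSAD2 in place of IFIH1. These tests were not run over all entries, so that count has no share to be read against. Both IFIH1 and RSAD2 were tested only because 246-15 lifted their mean past the minimum. With the minimum taken over the other 15 pigs, 21 of 24 genes had a lower mean in Si-NEC pigs (47.3% of all entries), with a median of -0.25, and 6 had an unadjusted p under 0.05, all lower (1.35%).

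Against Co-NEC pigs, 28 of 28 genes had a lower mean in the 5 Si-NEC pigs other than 246-15 (51.2% of all entries), with a median of -0.29 against -0.01 over all entries. An unadjusted p under 0.05 was reached by 6 genes, all lower (3.57% of all entries in that direction), and 0 passed the adjusted threshold (0.00736%), with a smallest adjusted p of 0.686. The 6 were IFI44L, EIF2AK2, PARP12, IFI44, DDX58 and IFIH1, of which IFI44L, PARP12, IFI44 and IFIH1 were also among the 7 above. The 2 comparisons use the same 5 Si-NEC pigs, so they are not independent of each other. The difference of IFI44L was -0.86 (SE 0.21), with 5.57 to 11.1 FPKM in Co-NEC pigs, and was the single gene without overlap (0.824% of all entries in that direction). EIF2AK2 had a difference of -0.61 (SE 0.19), with 4 of 5 Si-NEC pigs below every Co-NEC pig. With the minimum taken over the other 15 pigs, 24 of 24 genes had a lower mean (51.2% of all entries), with a median of -0.27, and 5 had an unadjusted p under 0.05, all lower (3.55%).

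**Figure D4:**
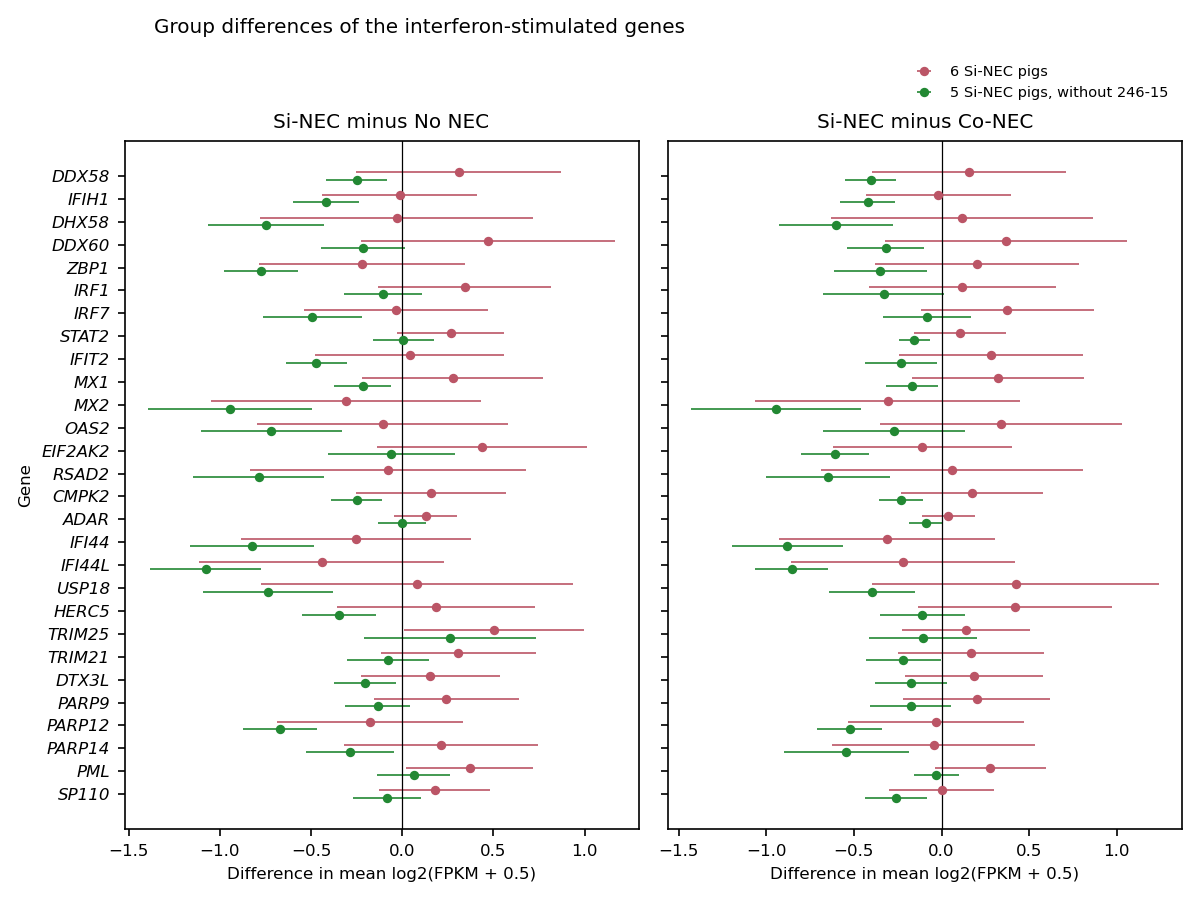
Difference in mean log2(FPKM + 0.5) of each gene between Si-NEC and No NEC pigs (left) and Si-NEC and Co-NEC pigs (right), with all 6 Si-NEC pigs and with 5 after leaving out 246-15 (points, with limma standard errors as bars). With 246-15 the points scatter about 0 with wide bars, and without it 25 and 28 of the 28 genes lie below 0.

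Values within a suffix were also taken, because the 4 highest pigs shared suffix 15. Among pigs with suffix 15, 26 of 28 genes had a higher mean in the 4 Si-NEC than in the 3 No NEC pigs, with a median of 0.41 (57.5% of all entries were higher), and 0 were higher with an unadjusted p under 0.05 (1.47%). Among pigs with suffix 14, which hold neither 246-15 nor 253-15, 25 of 28 genes had a lower mean in the 2 Si-NEC than in the 2 No NEC pigs (54.8% of all entries), with a median of -0.46, and 11 had an unadjusted p under 0.05, all lower (2.78%). The pooled difference thus did not hold within suffix 14. Within suffix 15 the Si-NEC group includes 246-15, and no fit was made there without it. The Si-NEC pigs 226-15, 224-15 and 223-15 of that suffix had means over the 28 genes of 0.05, -0.23 and -0.31. The No NEC pigs 253-15, 228-15 and 230-15 had 0.76, -0.10 and -0.16. Leaving out No NEC pig 253-15 as well as 246-15 gave 22 of 28 genes lower in Si-NEC pigs (52.6% of all entries), with a median of -0.19 and 6 genes with an unadjusted p under 0.05, all lower (1.58%). Leaving out Co-NEC pig 255-15 as well as 246-15 gave 24 of 28 lower against Co-NEC pigs (51.5% of all entries), with a median of -0.21 and 6 genes with an unadjusted p under 0.05, all lower (5%).

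The 28 genes varied together across pigs. Over the 16 pigs the median Pearson r between pairs of them was 0.847 (378 pairs, from 0.33 to 0.98), and 367 pairs exceeded 0.5. Without 246-15 the median over 15 pigs was 0.532, and 211 pairs exceeded 0.5, while the median over all pairs of entries was 0.022 in each case. The correlation over 16 pigs thus rested in large part on 1 animal, and all pairs share the same libraries. DDX60, HERC5, RSAD2 and IFIH1, which passed the minimum only through 246-15, are among the pairs.

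Other genes of the interferon pathway were taken from fixed lists. Of 12 listed ligands 4 had a row, and 1 was above the minimum. IFNB1, encoding interferon beta, was listed at 0 in 15 pigs, 246-15 included, with 0.249 FPKM in Co-NEC pig 231-15. IFNE did not exceed 0.585 FPKM and was listed at 0 in 246-15. IFNK, the ligand above the minimum, was measured in every pig and was at 1.68 FPKM in 246-15 and at 0.876 to 5.62 FPKM in the others. IFN-DELTA-1 was at 0.0402 FPKM in 246-15, lower than in 14 of the 15 other pigs, which ranged from 0.0188 to 0.476 FPKM. None of these 4 ligands was highest in 246-15. The receptor chain IFNGR1, of the type II interferon receptor, was at 17.5 FPKM in 246-15, inside the range of 10.5 to 21.3 FPKM.

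Of the receptor kinases and factors described here, 246-15 was highest for STAT3 and TYK2. STAT3 was at 25.0 against 15.2 to 22.8 FPKM and TYK2 at 14.4 against 6.37 to 14.3 FPKM. JAK1, JAK2, IRF2, IRF3 and IRF5 stayed within the range of the other pigs. Of 6 tested genes upstream of interferon, 246-15 was highest for 3. TMEM173 (STING), the adaptor of cytosolic DNA sensing, was at 3.36 against 0.663 to 1.96 FPKM. TLR3, the endosomal sensor of double-stranded RNA, was at 2.21 against 0.317 to 1.93 FPKM, and MYD88, the adaptor of most other Toll-like receptors, at 6.20 against 3.80 to 6.11 FPKM. MAVS, the adaptor of RIG-I and MDA5, was at 8.71 FPKM, inside the range of 7.22 to 11 FPKM. The feedback inhibitor SOCS1 was at 8.48 FPKM in 246-15 and at 2.11 to 4.26 FPKM elsewhere, whereas the brakes PIAS1, PTPN2 and PTPN6 were within range.

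Of 9 further type I targets above the minimum, 246-15 was highest for 6. SAMD9, a restriction factor of poxviruses, was at 5.25 against 0.227 to 1.47 FPKM, NMI at 5.43 against 0.770 to 2.36 FPKM, and its partner IFI35 at 7.03 against 0.977 to 4.5 FPKM. SHISA5, TRIM26 and PHF11 were at 89.6, 19.8 and 14.9 FPKM, with upper values of 45.0, 12.9 and 9.18 FPKM in the other pigs. LAP3, N4BP1 and CNP, the last of which is also a myelin gene, were not highest in 246-15. WARS, a tRNA synthetase induced by interferon gamma, was at 93.2 FPKM against 33.2 to 42 FPKM, while IDO1 and the tested entry of GBP1 were within range. In 1 of 3 tested targets of interferon gamma, therefore, 246-15 was highest. Under the minimum, a second entry of GBP1 was at 0.407 FPKM in 246-15 against at most 0.211 FPKM elsewhere. PSMB9 was at 1.24 against at most 1.06 FPKM. CIITA, also under the minimum, was at 0.790 FPKM in 246-15 and higher in Co-NEC pig 231-15, at 1.13 FPKM.

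**Figure D5:**
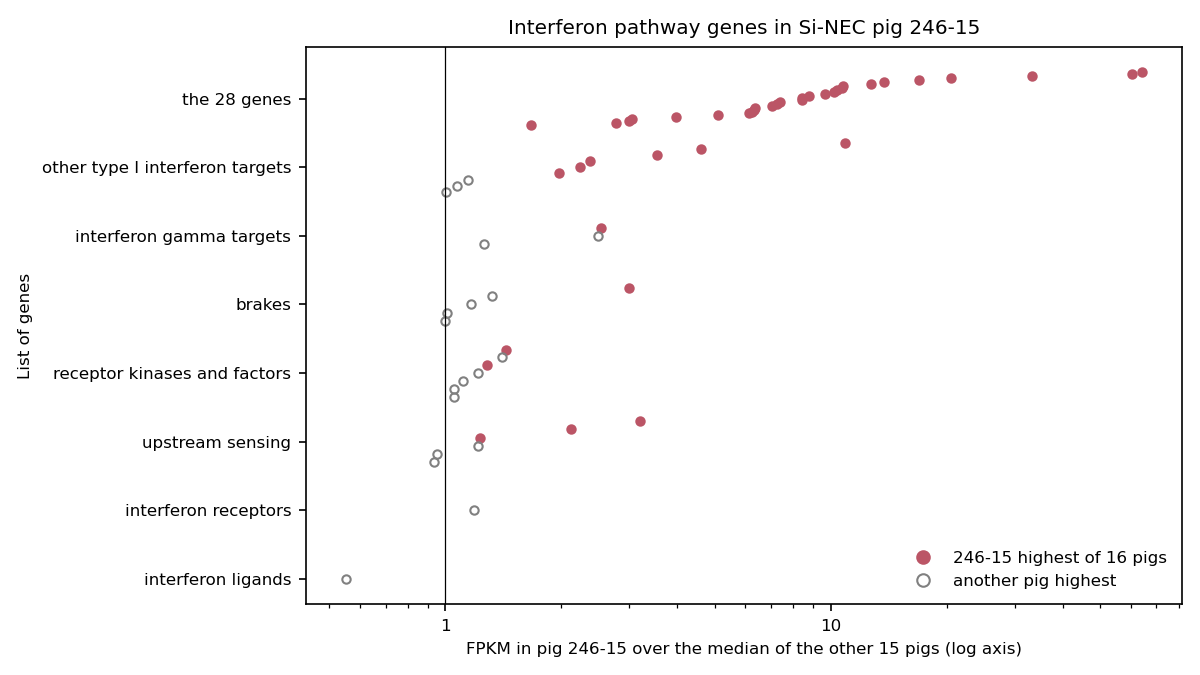
FPKM in Si-NEC pig 246-15 over the median of the other 15 pigs (log axis) for the reported entries of each list of interferon pathway genes, filled where 246-15 was the highest of 16 pigs. The 28 genes lie between 1.67 and 64.3, SAMD9 at 10.9, while the ligand IFNK lies at 0.552 and most kinases near 1.

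Between groups, 0 of these pathway genes passed an adjusted p of 0.2 in any comparison (at most 0.0147% of all entries). Between the Si-NEC and Co-NEC groups without 246-15, the difference of TLR3 was -0.61 (SE 0.21, limma adjusted p = 0.686) and that of JAK1 -0.32 (SE 0.14, limma adjusted p = 0.706). LAP3, an aminopeptidase, went the other way, with a difference of 0.36 (SE 0.12, limma adjusted p = 0.686). TLR3, JAK1 and LAP3 had an unadjusted limma p under 0.05 there. With all pigs, 1 of 9 further type I targets reached that in each Si-NEC comparison, higher in Si-NEC pigs. For Co-NEC against No NEC, 1 brake entry and 1 kinase or factor did, both higher in Co-NEC pigs. The shares over all entries, in either direction, were 2.61%, 5.64% and 3.44%.

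Markers of cell types that could carry the response were read beside it. Of 8 microglia markers 4 were measured, and their summed level in 246-15 was 52.0 FPKM, with ranges of 44.0 to 99.8 FPKM in No NEC, 46.3 to 75.2 FPKM in Co-NEC and 37.8 to 113 FPKM in Si-NEC pigs. CX3CR1, the microglial fractalkine receptor, was lowest of all in 246-15, at 4.25 FPKM against 5.39 to 21.3 FPKM. The other microglia markers measured were inside the range of the other pigs. P2RY12 was at 7.54 against 5.02 to 22.9 FPKM, CSF1R at 8.84 against 6.85 to 15.6 FPKM and C1QA at 31.3 against 18.9 to 59.1 FPKM. Of the 6 astrocyte markers 3 were tested and summed to 1041 FPKM in 246-15, within 892 to 1528 FPKM of the other pigs. Of the 6 endothelial markers 3 were tested and summed to 30.1 FPKM, within 15.1 to 35.9 FPKM, though PECAM1 was highest in 246-15, at 13.4 FPKM. Of 8 lymphocyte markers 5 had a row and 1 was above the minimum, NKG7, at 0.931 FPKM in 246-15 against 0.0627 to 6.56 FPKM. CD3D and MS4A1, under the minimum, were listed at 0 in 246-15. CD3D did not exceed 0.242 FPKM in any pig and was at 0 in other pigs too, such as 253-15, so its 0 says little.

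Among neutrophil markers, S100A8, a calcium-binding protein of neutrophils and monocytes, was at 25.0 FPKM in 246-15, with 21.2 and 14.8 FPKM in Si-NEC pigs 224-15 and 223-15 and at most 7.11 FPKM in the other 13 pigs. Those 2 Si-NEC pigs had means over the 28 genes of -0.23 and -0.31. S100A8 was the single neutrophil marker of 8 above the minimum, and 4 others had rows below it. Of those, LTF (lactoferrin) was highest in 246-15, at 0.973 FPKM against 0.0346 to 0.616 FPKM. ELANE was at 0.287 FPKM and MPO at 0.0485 FPKM in 246-15, both within the range of the other pigs, and CSF3R was listed at 0 in every pig. The choroid plexus gene TTR was also highest in 246-15, at 25.3 FPKM, with 23.4 FPKM in the next pig. Of 3 choroid plexus entries tested, 246-15 was highest in this 1 alone. Over the 3 entries its level was a median of 1.12 times the median of the other 15 pigs. The part of these cell types in the raised levels was not tested.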

How the data were processed

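Total RNA of the left hippocampus of 16 pigs had been sequenced as paired-end libraries. After trimming, the authors mapped reads to the Sscrofa 10.2 genome (TopHat2 2.1.1), estimated expression with Cufflinks 2.2.1 and deposited FPKM per gene entry and pig. The submitters' processing notes also name Cuffdiff, without its role. The step that wrote the table, and any scaling between pigs in it, are not given in the sources used here, and no genome of that build was used, so no positions or sequences are given.

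Of 24594 entries, 1779 identical to another were dropped. Members were matched by gene ID through a table of symbols, with RIGI taken for DDX58. The values hold no counts. Of values above 0 and under 0.1 FPKM, at most 10.7% shared one ratio with a reference pig, so no depth, counting error or floor could be derived.

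Separate limma 3.58.1 fits (R 4.3.3; lmFit, eBayes with a trend) were made for each 2 groups on log2(FPKM + 0.5), over all 13590 entries whose mean reached 0.5 FPKM, with Benjamini-Hochberg adjustment over all of them and the study's threshold of 0.2. The fit was tested on simulated data. Single genes also had two-sided exact permutation tests. Other tools were scipy 1.17.1, pandas 2.3.3, numpy 2.4.6 and matplotlib 3.10.9 under Python 3.11.15. Pigs are separate animals, and the tests set group differences against the spread between pigs. The study delivered its piglets from several sows, and the labels give no litter, so any littermates were treated as independent.

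The members, lists and alternatives were chosen with earlier results of these data known. Values in every pig are given for those members with a row that the study lists as differentially expressed. The study also lists IFIT1 and IFIT3, whose IDs had no row here. Per comparison, up to 8 further members with an unadjusted p under 0.05 were to be added, of which there were 0 with all pigs. The study chose its genes on these same samples, so they are not independent evidence. IRF7 and PARP12 were added after their values were seen. One listed pathway gene is not reported here. Of the 10 entries outside all lists that varied most like the members, those with a symbol and 2 others are named. The alternatives were other pseudocounts, filters and scaling, covariates for sex and suffix, 1 fit of all groups, array weights, summed entries and leaving out pigs. Those within suffix 14, without 246-15 with a covariate or with the minimum taken over the other pigs, and without 2 high pigs were added after the data were seen.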

Additional observations from a re-analysis of the deposited data

Results flagged for a closer look

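In each group, each gene was checked for a pig whose gap to the nearest other pig, on the log2 scale, was a large share of the group's range (Dixon's criterion at 95%). For a single check, chance marks about 1 in 20 groups. The checks of different genes use the same pigs, so they are not independent of each other. The share marked over all entries was not taken, so the count of marks is a description. Of 84 checks, 30 were marked, and 26 of them were Si-NEC pig 246-15, the highest of its group each time. Its marked levels among sensors and transcription factors were 29.0 FPKM for DDX58, 3.81 for IFIH1, 36.4 for DHX58, 11.1 for DDX60, 8.33 for ZBP1, 25.3 for IRF1, 46.9 for IRF7 and 37.6 for STAT2. Among the antiviral effectors they were 13.4 FPKM for IFIT2, 229 for MX1, 26.2 for MX2, 70.8 for OAS2, 30.3 for EIF2AK2, 11.1 for RSAD2, 21.6 for CMPK2, 21.6 for IFI44 and 60.8 for IFI44L. In the ubiquitin, PARP and nuclear body genes they were 52.8 FPKM for USP18, 6.30 for HERC5, 12.3 for TRIM21, 4.34 for DTX3L, 6.04 for PARP9, 12.8 for PARP12, 7.57 for PARP14, 22.3 for PML and 6.00 for SP110. ADAR and TRIM25 were not marked in this pig. Of the marked genes, DDX60, HERC5, RSAD2 and IFIH1 reached the minimum mean only through 246-15, so they had to be high in it to be checked. Pig 246-15 had also been singled out after its values were seen, so its marks are not independent evidence.

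The other 4 marks fell on 3 pigs. Co-NEC pig 231-15 was far above its group for IRF1, at 12.2 FPKM, and for PARP14, at 3.40 FPKM. No NEC pig 253-15 was far above its group for HERC5, at 1.03 FPKM, and No NEC pig 550-14 far below its group for SP110, at 1.19 FPKM.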

How the results depend on the processing

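No alternative called any of the 28 genes at an adjusted p under 0.2, in any comparison. Over all entries tested, the alternatives called 1 to 4 for Si-NEC against No NEC and 1 to 10 for Co-NEC against No NEC. For Si-NEC against Co-NEC they called 1 to 12, except for array weights, which called 201 of 13590. Without pig 246-15, the count with an unadjusted p under 0.05 went from 0 to 7 and the median difference from 0.15 to -0.27 for Si-NEC against No NEC, and to 6 and -0.29 for Si-NEC against Co-NEC. With sex as covariate as well, the counts were 8 and 8 and the medians -0.27 and -0.29, and with suffix 7 and 6 and the same medians. With the minimum mean taken without 246-15, 6 and 5 of 24 genes and medians of -0.25 and -0.27 were found. Without 253-15 too, the values were 6 and -0.19, and without 255-15 too, 6 and -0.21. Leaving out 1 pig at a time, the medians ranged from -0.27 to 0.27 for Si-NEC against No NEC, from -0.10 to 0.16 for Co-NEC against No NEC and from -0.29 to 0.28 for Si-NEC against Co-NEC, and the counts from 0 to 7, 0 to 1 and 0 to 6. Pigs with suffix 14 alone gave 11 genes and -0.46, 6 genes and -0.17, and 6 genes and -0.24, in the same order. For the counts with a covariate, and for suffix 14 in the comparisons with Co-NEC, the share over all entries was not taken. The median for Co-NEC against No NEC, 0.00, changed sign to -0.0091 with median-of-ratios scaling, -0.067 with array weights and -0.038 without pigs 223-15 and 230-15. The cause of these shifts was not tested. Without 255-15 the count for Co-NEC against No NEC was 1. All other alternatives gave counts of 0 and medians that moved by less than the spread between pigs, the one within suffix 15 included. For Si-NEC against No NEC the pooled standard deviation of the mean over the 28 genes was 0.92. It includes 246-15, so a shift below it says little. Within suffix 15, where 246-15 was among the Si-NEC pigs, that median rose from 0.15 to 0.41. There 26 of 28 genes were higher instead of 18. No paired analysis was possible because the labels carry no shared replicate numbers and the groups are different pigs. Precision is limited by the number of pigs, and depth is unknown.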

Other observations

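Outside the lists, the 10 entries whose log2 values followed the mean of the 28 genes most closely over the 16 pigs were found by Pearson r, as a description of pigs that share their libraries with the 28 genes. They included ZC3HAV1 (r = 0.970), which encodes the zinc-finger antiviral protein ZAP, RNF31 (r = 0.945), a subunit of the linear ubiquitin ligase complex, ERAP2 (r = 0.917), a peptidase of antigen processing, and SLC8B1 (r = 0.906), a mitochondrial sodium and calcium exchanger. ZC3HAV1 was at 17.7 FPKM in pig 246-15 and at 2.46 to 5.15 FPKM in the others. RNF31 was at 76.5 FPKM against 15.6 to 39.8 FPKM, and SLC8B1 at 44.3 FPKM against 1.54 to 12.9 FPKM. For ZC3HAV1, RNF31 and SLC8B1 the next highest pig was No NEC pig 253-15, and for ERAP2 it was Co-NEC pig 231-15, at 1.48 FPKM against 4.28 FPKM in 246-15.

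The other 6 entries carry IDs without a symbol in the table used. The closest of all, ENSSSCG00000010453 (r = 0.978), was at 104 FPKM in 246-15, against 3.43 to 12.5 FPKM, and ENSSSCG00000014565 (r = 0.959) at 128 FPKM, against 2.66 to 21.5 FPKM. Over the 15 pigs without 246-15, the same ENSSSCG00000010453 and ENSSSCG00000014565 again came first, with r of 0.894 and 0.882, followed by RNF31 with 0.871. IL10RA, a chain of the interleukin 10 receptor, joined the closest 10 there, with r of 0.852 and 6.86 FPKM in 246-15 against 2.45 to 5.09 FPKM. Of the listed pathway genes, SAMD9 had r of 0.949 over 16 pigs and 0.795 over 15. WARS and SOCS1, which were raised in 246-15, had r of 0.890 and 0.731 over 16 pigs but 0.226 and -0.05 over 15, so their levels in the other pigs did not follow the 28 genes.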
